A study of Homo sapiens with 30 samples.

Results

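The BH3-only genes encode the proteins that start mitochondrial apoptosis. Their messenger RNAs were followed in 4 cell lines of diffuse large B-cell lymphoma (DLBCL) treated with AZD8186, an inhibitor of the PI3Kβ and PI3Kδ isoforms of phosphoinositide 3-kinase, at 0.5 µM. Members were the genes whose symbol in the files was exactly BCL2L11, BBC3, PMAIP1, BIK, BMF, BAD, BID or HRK, which gave 8 of the 21112 genes. HT and K422 are lines of the germinal center B-cell-like (GCB) subtype, and TMD8 and OCI-Ly10 of the activated B-cell-like (ABC) subtype. The study's methods give Iscove's medium for TMD8 and OCI-Ly10 and RPMI for HT and K422, whereas the labels give RPMI for all lines. If the methods hold, medium and subtype cannot be told apart here. The cells had been exposed to AZD8186 or to the solvent DMSO for 6, 12, 18 or 24 h, apart from TMD8, which had no 12 h libraries. The labels call the control DMSO, whereas the series' design text calls it untreated. Every line, treatment and time had 1 library, so the 30 libraries form 15 pairs in which AZD8186 is set against DMSO at the same line and time. No source says that the libraries of a line came from separate cultures, so a p-value here reflects no more than how far the libraries scatter, and that scatter may be technical. The study chose all 4 lines as sensitive to the compound, so no resistant line is among them. Sensitive meant a lower viability under AZD8186. The paper reported more apoptosis under the compound for both ABC lines, whereas HT and K422 showed no such increase. Cell cycle arrest was reported for all 4 lines. Whether the messenger RNA changes given here relate to either outcome was not tested.

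A BH3-only protein carries a short helix, the BH3 domain, with which it binds the groove of other members of the BCL2 family. The BCL2-type guards (BCL2, BCL-XL, MCL1 and BCL2A1) hold the pore formers BAX and BAK in check, and a BH3-only protein that occupies a guard frees them. BIM (from BCL2L11), PUMA (from BBC3) and the cleaved form of BID can also switch on BAX and BAK directly. NOXA (from PMAIP1), BAD, BIK, BMF and HRK act mainly by occupying guards. In B cells BIM is known for removing self-reactive cells and cells deprived of survival signals. PI3K signaling is known to restrain these genes and proteins at several steps. AKT keeps the FOXO factors, which can induce BCL2L11 and BBC3, out of the nucleus, and phosphorylates BAD so that 14-3-3 proteins hold it in the cytosol.

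The libraries held 15820230 to 23579029 counts each, with a median of 18591638, and ribosomal RNA took 0.69% to 4.35% of them. All 6 markers of B cells had a mean of at least 1 TPM in every line and treatment. TPM is a gene's share of the library's transcripts, corrected for gene length. The summed germinal center markers lay at 314 to 481 TPM in the GCB lines and at 15.2 to 50.5 TPM in the ABC lines. The summed activated B-cell markers lay at 14.4 to 40.5 TPM in the GCB lines and at 210 to 393 TPM in the ABC lines. LMO2, a germinal center marker, was against its label, with a mean of 0 TPM in HT and 20.2 TPM in TMD8. FOXP1, an activated B-cell marker, did not separate the subtypes either. Its means were 12.6 TPM in HT, 24.4 in K422, 17.6 in TMD8 and 32.5 in OCI-Ly10. K422 stood apart in markers of other cells. It had means of 74.9 TPM of CD3D, 99.7 TPM of CD3G and 139 TPM of DCN, while CD2, COL1A1, COL1A2 and COL3A1 were at 0 and CD8A at 0.0138 TPM. The summed T-cell markers of K422 were 167 to 182 TPM under AZD8186 and 162 to 184 TPM under DMSO, and its summed stroma markers were 157 to 193 TPM under AZD8186 and 98.4 to 128 TPM under DMSO. Their part in the K422 results was not tested. The summed myeloid markers were at most 1.28 TPM in any library.

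BCL2L11 and BBC3 had higher normalized counts under AZD8186 in all 15 pairs, counting 1 pair in which BCL2L11 was level, and the stretches before their transcription starts are shown for that reason. They are RefSeq sequences (GRCh38.p14), written 5′ to 3′ along the gene's strand, and RefSeq windows were at hand for 7 of the 8 members. Capitals mark a match to a motif. The BCL2L11 stretch is chr2:111120664-111120913 on the plus strand. It runs up to the base before the RefSeq start and lies outside every annotated exon, although the GENCODE 29 gene begins farther upstream.
BCL2L11: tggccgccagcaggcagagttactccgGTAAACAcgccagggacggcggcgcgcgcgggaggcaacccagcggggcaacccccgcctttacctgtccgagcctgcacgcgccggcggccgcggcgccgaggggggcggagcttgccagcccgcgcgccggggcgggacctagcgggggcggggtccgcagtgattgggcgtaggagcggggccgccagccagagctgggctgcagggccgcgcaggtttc
The BBC3 stretch is chr19:47232767-47232917 on the minus strand, the part of the window before the first annotated exon.
BBC3: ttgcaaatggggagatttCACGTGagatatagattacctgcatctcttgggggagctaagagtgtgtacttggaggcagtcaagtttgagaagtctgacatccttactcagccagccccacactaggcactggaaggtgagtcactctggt

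The 3 motifs were searched on both strands of the 250 bases before each start, and were chosen after part of the sequences had been seen. The FOXO motif GTAAACA was in the BCL2L11 window, 223 bases before the start, and in no other member's window. It was in 2.98% of all 35116 windows of that length. The E-box CACGTG, a site bound by MYC and related factors, was in the BBC3 window, 232 bases before the start, and in overlapping windows of BID, against 6.34% of all windows. The cyclic AMP response element TGACGTCA was in none of the members' windows and in 1.65% of all windows. No window held more than 1 match. A match describes the letters only.

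The members lie on 7 chromosomes, with BIK and BID both on chromosome 22. BCL2L11 spans chr2:111119378-111168447 and is written as 18 transcripts in the deposited annotation, against 1 transcript each for PMAIP1 and BIK. Several members share exonic bases with a neighbor on the opposite strand, namely BCL2L11 with MIR4435-2HG (727 bases), BMF with BMF-AS1 (461 bases), BAD with GPR137 (404 bases) and BBC3 with MIR3190 (80 bases). Whether the libraries or the counting kept strand is not given in the sources used here, so reads from those shared bases cannot be told apart by strand.

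In DMSO the lines differed widely in which BH3-only genes they transcribed. OCI-Ly10 carried the broadest set, with BBC3, PMAIP1, BIK, BMF, BAD, BID and BCL2L11 all at 13.9 TPM or more in every DMSO library. K422 was nearly without BIK, BMF and BBC3, which had means of 0.0225, 0.0925 and 0.198 TPM there. HRK, a sensitizer known from neurons, was at most 0.18 TPM in any library, with 0 to 15 counts, and it passed the filter in none of the comparisons given here. The values that follow are TPM in the order of the time points, and the plot of levels shows all of them.

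**Figure D1:**
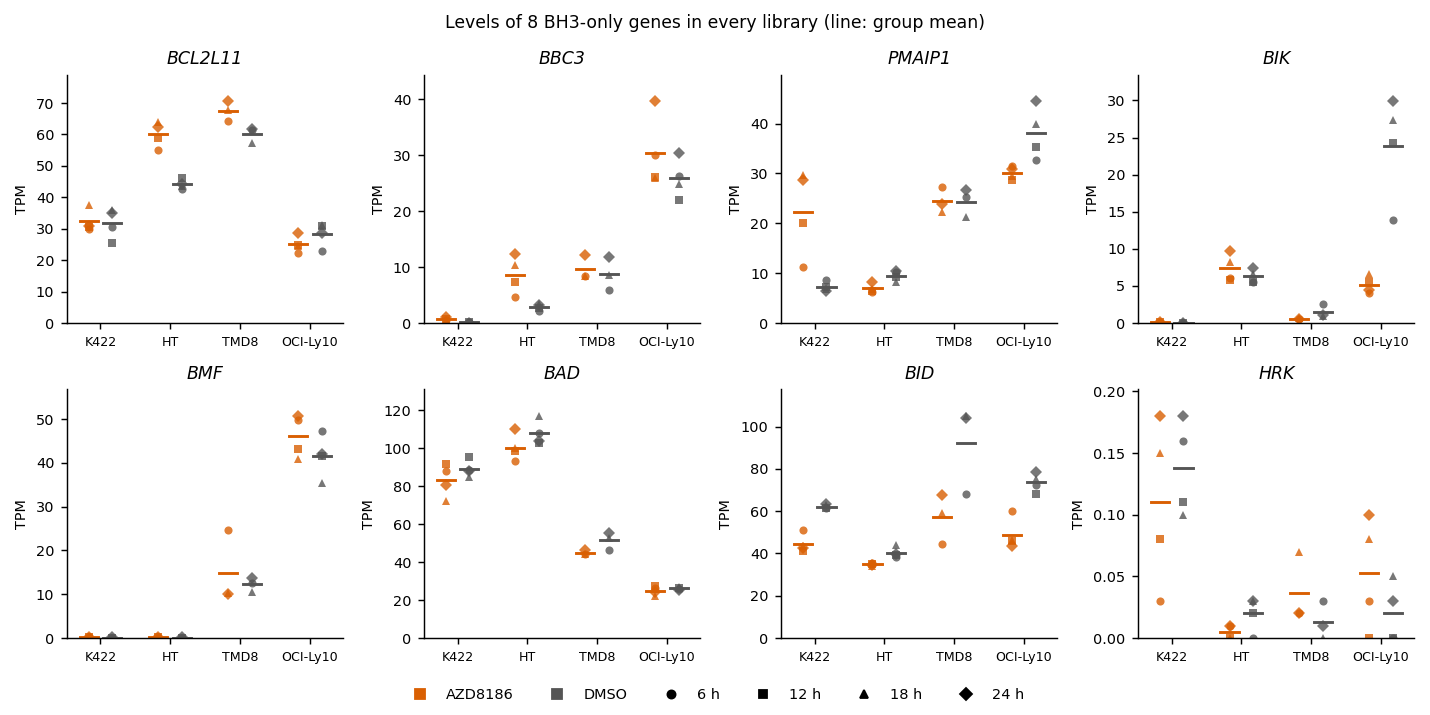
TPM of the 8 BH3-only genes (1 panel each, linear axis from 0) in the AZD8186 libraries (orange, left) and DMSO libraries (grey, right) of each cell line. Symbols give the time and bars the group mean. BMF is high in the ABC lines and near 0 in the GCB lines, BBC3 is highest in OCI-Ly10 and near 0 in K422, BAD is highest in HT, and BIK in OCI-Ly10 is lower in every AZD8186 library than in any DMSO library.

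BMF, which is held at the cytoskeleton until cells detach or are stressed, separated the GCB lines from the ABC lines most sharply. In DMSO it had 0.11, 0.06, 0.10 and 0.15 TPM in HT and 0.09, 0.09, 0.07 and 0.12 TPM in K422. TMD8 had 12.5, 10.6 and 13.6 TPM, and OCI-Ly10 47.3, 41.6, 35.3 and 42.1 TPM. HT and K422 did not differ past the threshold (HT minus K422 log2 difference 0.29 in the counts, SE 0.33, adjusted p = 0.518). TMD8 was lower than OCI-Ly10 by a log2 difference of -1.73 (SE 0.083, adjusted p = 5.18e-12). The GCB values rest on 4 to 9 counts per DMSO library.

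BBC3, the gene of PUMA and a well known p53 target, fell into 4 steps in DMSO. It had 26.4, 22.0, 24.8 and 30.5 TPM in OCI-Ly10 and 6.00, 8.57 and 11.9 TPM in TMD8. HT had 2.08, 2.68, 3.34 and 3.15 TPM, and K422 had 0.28, 0.21, 0.23 and 0.07 TPM, which are 1 to 6 counts per library. No neighbors in that order overlapped. The log2 differences were -1.57 for TMD8 minus OCI-Ly10 (SE 0.15, adjusted p = 5.52e-08), -1.94 for HT minus TMD8 (SE 0.17, adjusted p = 1.02e-08) and 4.01 for HT minus K422 (SE 0.31, adjusted p = 1.68e-09).

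PMAIP1, whose product NOXA binds MCL1 in particular, followed the same order of lines. OCI-Ly10 had 32.7, 35.3, 40.0 and 44.5 TPM in DMSO and TMD8 25.2, 21.2 and 26.6 TPM. HT had 10.2, 9.23, 8.16 and 10.5 TPM and K422 8.56, 7.29, 6.93 and 6.47 TPM. The HT and K422 libraries overlapped in range, with a log2 difference of 0.50 for HT minus K422 (SE 0.11, adjusted p = 0.000695).

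BIK, a BH3-only protein of the endoplasmic reticulum, was highest in OCI-Ly10, with 13.9, 24.3, 27.4 and 29.9 TPM in DMSO. HT had 5.6, 5.51, 6.64 and 7.41 TPM and TMD8 2.54, 0.99 and 1.15 TPM. In K422 the DMSO libraries had 0, 0, 1 and 0 counts of BIK, so no fold is given against that line. HT was above TMD8 by a log2 difference of 1.72 (SE 0.34, adjusted p = 0.000177) and below OCI-Ly10 by one of -2.19 (SE 0.22, adjusted p = 5.86e-08).

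BAD ran the other way, with the GCB lines on top. HT had 108, 103, 117 and 104 TPM in DMSO and K422 88.4, 95.4, 84.8 and 88.2 TPM. TMD8 had 46.2, 52.7 and 55.6 TPM and OCI-Ly10 25.8, 26.3, 27.1 and 25.4 TPM. All neighbors in the order differed past the threshold, with log2 differences of 0.38 for HT minus K422 (SE 0.078, adjusted p = 0.000258), 0.36 for K422 minus TMD8 (SE 0.089, adjusted p = 0.00132) and 1.01 for TMD8 minus OCI-Ly10 (SE 0.092, adjusted p = 2.49e-08).

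BID, which caspase-8 cleaves to link death receptors to mitochondria, was well transcribed in all lines. TMD8 had 68.1, 105 and 104 TPM in DMSO, OCI-Ly10 72.5, 68.2, 75.0 and 78.7 TPM, K422 61.5, 61.3, 62.8 and 63.2 TPM, and HT 38.5, 39.2, 43.9 and 39.7 TPM. TMD8 overlapped OCI-Ly10 through its 6 h library, and the log2 difference of TMD8 minus OCI-Ly10 was 0.31 (SE 0.090, adjusted p = 0.00556). K422 was below OCI-Ly10 by a log2 difference of -0.69 (SE 0.083, adjusted p = 4.99e-07), and HT below K422 by one of -0.54 (SE 0.084, adjusted p = 1.74e-05).

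BCL2L11 was present in all lines, and its order depended on the scale. In DMSO it had 61.5, 57.2 and 61.7 TPM in TMD8 and 42.5, 46.1, 43.7 and 44.4 TPM in HT. K422 had 30.5, 25.5, 36.0 and 35.0 TPM and OCI-Ly10 23.0, 30.9, 31.3 and 28.6 TPM. By length-corrected TPM, HT was below TMD8 by -0.42 on the log2(TPM + 1) scale (SE 0.11, limma's adjusted p = 0.00365), whereas by counts HT was above TMD8 by a log2 difference of 0.27 (SE 0.079, adjusted p = 0.00559). K422 minus OCI-Ly10 was 0.15 on the log2(TPM + 1) scale (SE 0.10, adjusted p = 0.188) and -0.19 in the counts (SE 0.072, adjusted p = 0.0201). The effective length that the authors' RSEM assigned to BCL2L11 averaged 2189 bases in TMD8, 3496 in OCI-Ly10, 3658 in K422 and 4434 in HT under DMSO, so the transcripts credited to the gene differed between the lines.

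Differences between lines were the rule for all genes. Over 12596 genes tested, 69.3% differed in DMSO between TMD8 and OCI-Ly10, 68.0% between HT and K422, 80.6% between HT and OCI-Ly10, 76.4% between HT and TMD8, 80.9% between K422 and OCI-Ly10 and 77.1% between K422 and TMD8. Of the 7 members tested, all 7 differed in each of those comparisons except HT minus K422, where 6 did. The members' share is thus read against backgrounds of that size. Summed over the 8 members, the median level was 212 TPM under AZD8186 and 255 TPM under DMSO in OCI-Ly10, 214 and 256 TPM in TMD8, 218 and 208 TPM in HT, and 184 and 190 TPM in K422, in that order of treatments.

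Under AZD8186, BCL2L11 (by counts) and BBC3 rose and BID fell in both subtypes, BIK fell and BMF rose in the ABC lines, and PMAIP1 rose in K422. In the GCB lines 1 of the 6 members tested was lower, against 23.5% of all 10965 genes tested, and 2 were higher, against 25.9%. In the ABC lines 2 of 7 were lower, against 13.8% of 11419 genes, and 3 were higher, against 15.3%. The median log2 fold change over the members tested was 0.34 in the GCB lines, against 0.025 over all genes, and 0.071 in the ABC lines, against 0.0072. HRK was tested in neither subtype and BMF not in the GCB lines, since their counts were too low for the filter. These are fits of the counts (edgeR's quasi-likelihood F test with cell line and time as terms, Benjamini-Hochberg over all genes, threshold 0.05). The log2(TPM + 1) scale moved the median of all genes in the ABC lines to -0.15, and values on that scale are to be read against that shift. There 4279 genes were lower and 620 higher in the ABC lines, against 1577 lower and 1750 higher in the counts.

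The activator BCL2L11 rose modestly in both subtypes by counts. In TMD8 it had 64.4, 67.8 and 70.6 TPM under AZD8186, against 61.5, 57.2 and 61.7 TPM under DMSO, with no overlap. In HT it had 55.2, 58.8, 63.9 and 62.3 TPM under AZD8186, against 42.5, 46.1, 43.7 and 44.4 TPM under DMSO, again with no overlap. In K422 it had 29.9, 30.7, 37.7 and 31.0 TPM under AZD8186, against 30.5, 25.5, 36.0 and 35.0 TPM under DMSO, and in OCI-Ly10 22.2, 25.0, 24.5 and 28.8 TPM, against 23.0, 30.9, 31.3 and 28.6 TPM. In K422 and OCI-Ly10 the TPM of the treatments overlapped. The fitted log2 fold change in the counts was 0.38 in the GCB lines (SE 0.048, 1.30-fold, adjusted p = 1.96e-05) and 0.36 in the ABC lines (SE 0.083, 1.28-fold, adjusted p = 0.00574), but on the log2(TPM + 1) scale the GCB value was 0.23 (adjusted p = 0.024) and the ABC value -0.027 (adjusted p = 0.813). On that scale only HT passed by limma when lines were taken apart (0.43, adjusted p = 0.00152). K422 was at 0.030 (adjusted p = 0.812), TMD8 at 0.17 (adjusted p = 0.153) and OCI-Ly10 at -0.17 (adjusted p = 0.0939).

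The same scale difference was seen within lines. In OCI-Ly10 the effective length of BCL2L11 averaged 4001 bases under AZD8186 and 3496 under DMSO, and in K422 4056 and 3658 bases in that order. In OCI-Ly10 the mean level was 25.1 ± 2.74 TPM under AZD8186 and 28.5 ± 3.83 TPM under DMSO (SD, n = 4 each), while the mean log2 ratio of the counts was 0.20 ± 0.19 (SD, n = 4 pairs). By line, the counts gave log2 fold changes of 0.20 in OCI-Ly10 (SE 0.077, adjusted p = 0.0654), 0.57 in TMD8 (SE 0.088, adjusted p = 0.000342), 0.49 in HT (SE 0.075, adjusted p = 0.000319) and 0.29 in K422 (SE 0.077, adjusted p = 0.00503). Gene-level values cannot tell which BCL2L11 transcripts were involved.

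**Figure D2:**
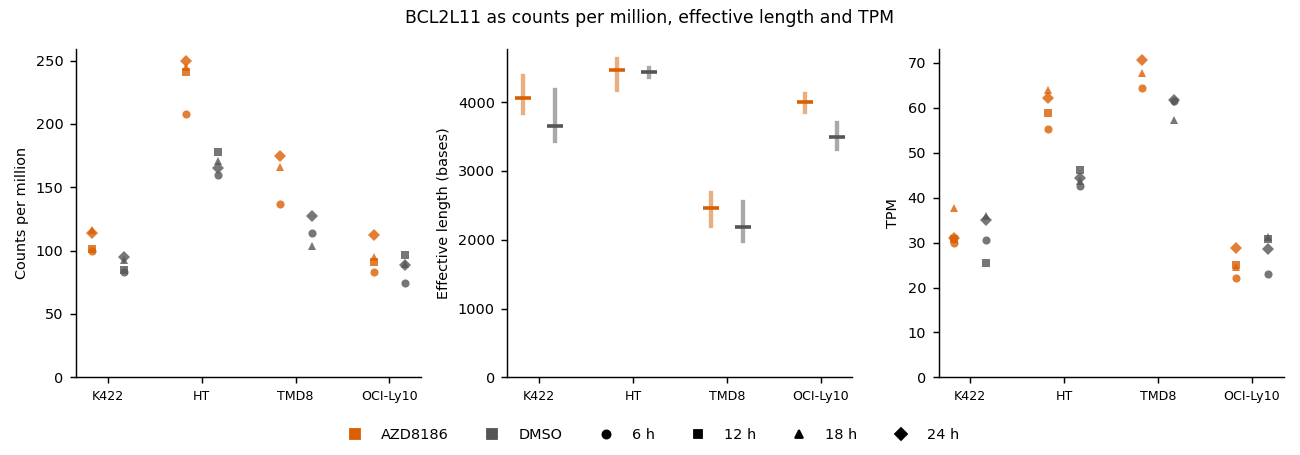
BCL2L11 in the AZD8186 libraries (orange, left) and DMSO libraries (grey, right) of each line as CPM, counts scaled to the library total (points, 1 per library), as effective length in bases (bar from lowest to highest library, tick at the mean) and as TPM (points). By CPM HT is above TMD8 and AZD8186 tends to be above DMSO, whereas by TPM TMD8 is above HT and in OCI-Ly10 the mean is 25.1 TPM under AZD8186 and 28.5 TPM under DMSO.

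The activator BBC3 rose in both subtypes, and more in the GCB lines. In HT it had 4.65, 7.34, 10.4 and 12.3 TPM under AZD8186, against 2.08, 2.68, 3.34 and 3.15 TPM under DMSO, so that every AZD8186 library was above every DMSO library. In K422 it had 12, 18, 14 and 25 counts under AZD8186, against 5, 5, 6 and 1 counts under DMSO, also with no overlap, at levels of 0.58 to 1.03 TPM against 0.07 to 0.28 TPM. In OCI-Ly10 it had 30.1, 26.2, 25.9 and 39.7 TPM under AZD8186, against 26.4, 22.0, 24.8 and 30.5 TPM under DMSO. In TMD8 it had 8.49, 8.47 and 12.2 TPM, against 6.00, 8.57 and 11.9 TPM, and in both ABC lines the treatments overlapped.

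The fitted log2 fold change of BBC3 was 1.67 in the GCB lines (SE 0.18, 3.19-fold, adjusted p = 5.04e-06) and 0.40 in the ABC lines (SE 0.081, 1.32-fold, adjusted p = 0.00275). In the ABC lines it was 0.19 with an adjusted p of 0.0839 on the log2(TPM + 1) scale. The response in the GCB lines exceeded that in the ABC lines by a log2 difference of 1.44 (SE 0.24, adjusted p = 0.000495), where 19.0% of the 11286 genes differed. With HT alone in place of both GCB lines the log2 difference was 1.20 (SE 0.19, adjusted p = 0.000853). Even so, BBC3 in HT and K422 under AZD8186 had means of 8.69 ± 3.39 and 0.728 ± 0.21 TPM (SD, n = 4 each), below the mean of 25.9 ± 3.55 TPM in OCI-Ly10 under DMSO (SD, n = 4). Leaving out any single pair left the GCB log2 fold change between 1.57 and 1.80 and the ABC log2 fold change between 0.35 and 0.46.

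The activator BID was lower in all 15 pairs by the normalized counts. In OCI-Ly10 it had 60.0, 45.9, 46.2 and 43.6 TPM under AZD8186, against 72.5, 68.2, 75.0 and 78.7 TPM under DMSO. In TMD8 it had 44.7, 59.1 and 67.5 TPM, against 68.1, 105 and 104 TPM under DMSO. In K422 it had 51.2, 41.0, 43.3 and 42.5 TPM under AZD8186, against 61.5, 61.3, 62.8 and 63.2 TPM under DMSO. In HT it had 35.7, 34.9, 34.2 and 34.4 TPM, against 38.5, 39.2, 43.9 and 39.7 TPM under DMSO. No AZD8186 library of BID reached the level of any DMSO library of the same line. The log2 fold change was -0.29 in the GCB lines (SE 0.055, adjusted p = 0.000589) and -0.44 in the ABC lines (SE 0.089, adjusted p = 0.00297). HT alone did not pass in the fit per line (log2 fold change -0.16, SE 0.067, adjusted p = 0.1). With HT fitted alone, at its own spread, BID was at -0.18 and passed (adjusted p = 0.0295).

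BIK fell in the ABC lines. In OCI-Ly10 it had 47, 68, 72 and 50 counts under AZD8186, against 171, 250, 324 and 388 counts under DMSO, which are 4.09 to 6.59 TPM against 13.9 to 29.9 TPM. In TMD8 it had 6, 9 and 9 counts under AZD8186, against 28, 12 and 14 counts under DMSO. In neither line did the treatments overlap. The log2 fold change in the ABC lines was -1.86 (SE 0.24, 0.276-fold, adjusted p = 0.000138). It was -2.0 in OCI-Ly10 (SE 0.18, adjusted p = 2.87e-06), whereas TMD8, at 6 to 28 counts, gave -1.11 (SE 0.40, adjusted p = 0.061).

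HT, the only GCB line with measurable BIK, had 6.10, 5.87, 8.21 and 9.65 TPM under AZD8186, against 5.6, 5.51, 6.64 and 7.41 TPM under DMSO. The treatments overlapped there, and the log2 fold change of 0.27 did not pass (SE 0.19, adjusted p = 0.35). K422 had 0, 2, 0 and 2 counts under AZD8186, against 0, 0, 1 and 0 counts under DMSO, so any response there was not detectable at this depth. A comparison of HT with the mean of the ABC lines, chosen after these counts had been seen, gave a log2 difference of 1.82 in the response (SE 0.29, adjusted p = 0.00102), where 8.62% of all genes differed.

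The response of PMAIP1 differed between the GCB lines. In K422 it had 11.3, 20, 29.6 and 28.6 TPM under AZD8186, against 8.56, 7.29, 6.93 and 6.47 TPM under DMSO, so that every AZD8186 library was above every DMSO library. In HT it had 6.25, 6.52, 6.75 and 8.27 TPM, against 10.2, 9.23, 8.16 and 10.5 TPM under DMSO, with 1 AZD8186 library above the lowest DMSO library. In OCI-Ly10 it had 31.5, 28.6, 29.4 and 30.9 TPM under AZD8186, against 32.7, 35.3, 40.0 and 44.5 TPM under DMSO, all below. In TMD8 it had 27.2, 22.3 and 23.8 TPM, against 25.2, 21.2 and 26.6 TPM under DMSO, which overlapped.

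By normalized counts PMAIP1 was higher in 4 of 4 pairs in K422 and in 3 of 3 in TMD8, and lower in 4 of 4 pairs in HT and in 4 of 4 in OCI-Ly10. The log2 fold change was 1.64 in K422 (SE 0.20, 3.12-fold, adjusted p = 4.58e-06). It was -0.41 in HT (SE 0.21, adjusted p = 0.173), -0.15 in OCI-Ly10 (SE 0.17, adjusted p = 0.547) and 0.23 in TMD8 (SE 0.20, adjusted p = 0.455). With HT fitted alone, at its own spread, the value was -0.43 with an adjusted p of 0.00208. K422 exceeded HT in the response by a log2 difference of 2.06 (SE 0.29, adjusted p = 0.000384), where 12.9% of genes differed, and PMAIP1 was the 1 member of 7 past the threshold. Fitted over both GCB lines the value was 0.64 (SE 0.32, adjusted p = 0.107), a mean of lines that differ.

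BMF rose slightly in the ABC lines by counts, close to the threshold. In OCI-Ly10 it had 49.9, 43.2, 40.8 and 50.7 TPM under AZD8186, against 47.3, 41.6, 35.3 and 42.1 TPM under DMSO. In TMD8 it had 24.6, 10.2 and 10.0 TPM, against 12.5, 10.6 and 13.6 TPM under DMSO. The treatments overlapped in both lines, and in TMD8 the 6 h AZD8186 library alone was above the DMSO libraries. The log2 fold change was 0.39 in the ABC lines (SE 0.13, adjusted p = 0.0318), and on the log2(TPM + 1) scale it was 0.15 with an adjusted p of 0.333. Without the 12, 18 or 24 h pair of OCI-Ly10, or without the 18 h pair of TMD8, the adjusted p was 0.0509, 0.102, 0.0908 or 0.0602, at log2 fold changes of 0.42, 0.37, 0.34 or 0.41. Without the 6 h pair of TMD8 the log2 fold change was 0.25 and still passed (adjusted p = 0.038). OCI-Ly10 fitted alone gave 0.34 (adjusted p = 0.00639) and TMD8 alone 0.39 (adjusted p = 0.311). In the GCB lines BMF had 4 to 23 counts in any library.

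BAD, whose product is controlled mainly by phosphorylation, passed in neither subtype. The log2 fold change was -0.049 in the GCB lines (SE 0.061, 95% interval -0.17 to 0.072, adjusted p = 0.528) and 0.071 in the ABC lines (SE 0.062, 95% interval -0.051 to 0.19, adjusted p = 0.413). Per library BAD ranged over 93.1 to 110 TPM under AZD8186 and 103 to 117 TPM under DMSO in HT. In OCI-Ly10 it ranged over 22.0 to 27.3 TPM under AZD8186 and 25.4 to 27.1 TPM under DMSO.

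**Figure D3:**
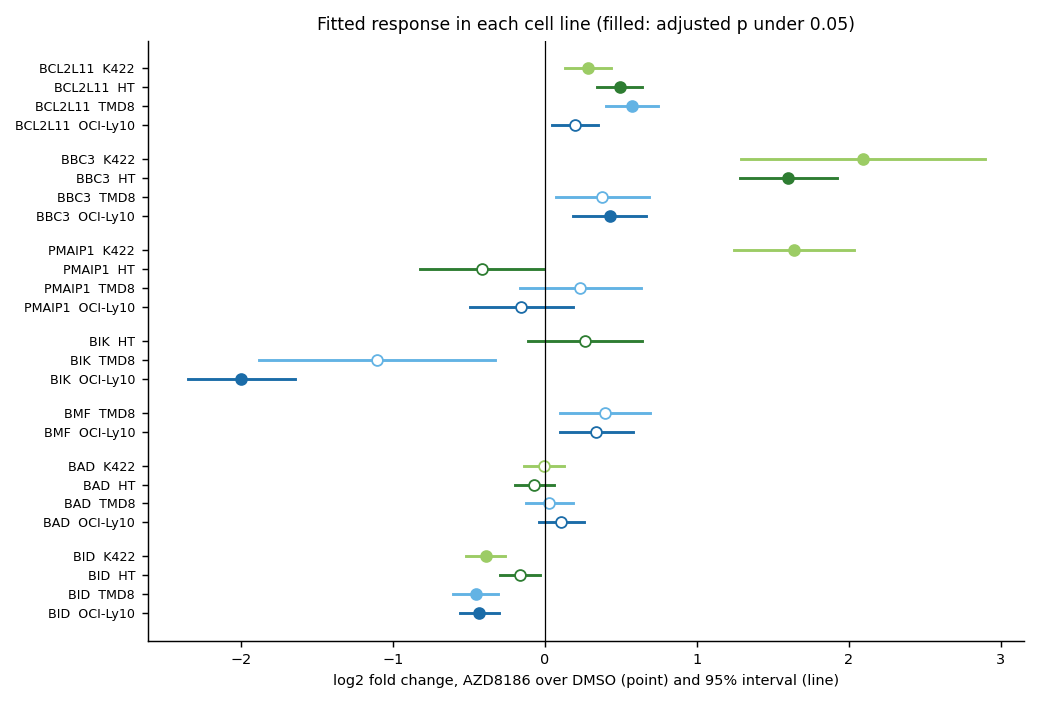
Log2 fold change of AZD8186 over DMSO (point) with its 95% interval (line) for each member in each cell line, from a fit of all 30 libraries with the pair as a block. Filled points have an adjusted p under 0.05. HRK everywhere, BIK in K422 and BMF in HT and K422 are left out for low counts. BBC3 is high in HT and K422, PMAIP1 stands apart in K422 at 1.64, BIK in OCI-Ly10 is at -2.0, and BCL2L11, here on counts, is above 0 in every line while on the log2(TPM + 1) scale its ABC value is -0.027.

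The members past the threshold were also listed for each line. OCI-Ly10 had 3 of 7 members past the threshold (BBC3 higher, BIK and BID lower), where 25.6% of 11286 genes passed. TMD8 had 2 (BCL2L11 higher, BID lower), where 19.2% passed, HT had 2 (BCL2L11 and BBC3 higher), where 19.7% passed, and K422 had 4 (BCL2L11, BBC3 and PMAIP1 higher, BID lower), where 48.9% passed. Without the 12, 18 or 24 h pair of OCI-Ly10, BBC3 there was at 0.41, 0.45 or 0.32 and did not pass (adjusted p = 0.0706, 0.0627 or 0.147). A member past the threshold in 1 line and not in another is not thereby shown to differ between them. Between TMD8 and OCI-Ly10 the response of 0 of 7 members differed by edgeR's test, and 1.08% of all genes did. At an unadjusted p under 0.05 it was 1 member, BCL2L11, with a log2 difference of 0.37 (95% interval 0.15 to 0.60). Without the 6 h pair of TMD8 that difference was 0.50 with an adjusted p of 0.0244.

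The exact two-sided permutation of the signs over the 15 pairs gave p = 6.1e-05 for BCL2L11, BBC3 and BID, the smallest value that 15 pairs can give. It treats all pairs as independent. Pairs of the same cell line are not, so its p-values, here and below, do not measure replication across lines. For BCL2L11 the 12 h pair of OCI-Ly10 counts as higher by a log2 ratio of only 0.0017, with 106 CPM after TMM scaling in both libraries, and by unscaled CPM its AZD8186 library was below its DMSO library. Over the 7 ABC pairs BIK was lower in 7 of 7 (p = 0.0156 by the exact permutation, the smallest possible there). With Benjamini-Hochberg adjustment over the 8 members, the permutation p-value was 0.000163 for BCL2L11, BBC3 and BID over the 15 pairs. For BIK over the ABC pairs it was 0.0312. The permutation was computed for each of the 8 members, and its other p-values are given here without that adjustment. For PMAIP1 it gave p = 0.225 over the 15 pairs by the same exact permutation. For BMF, higher in 13 of 15 pairs, it gave p = 0.000488 by the exact permutation, and 8 of the 15 are GCB pairs with 4 to 23 counts per library.

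Over time, the ratio of PMAIP1 in K422 was lowest at 6 h, with log2 ratios of 0.38, 1.5, 2.20 and 2.36 at 6, 12, 18 and 24 h. BBC3 in HT had log2 ratios of 1.07, 1.54, 1.51 and 2.06, and BCL2L11 in HT 0.38, 0.45, 0.51 and 0.63. BIK in OCI-Ly10 was already at -1.74 at 6 h and at -2.42 at 24 h. Each of these values comes from 1 pair. A test of 18 to 24 h against 6 to 12 h within each subtype found 0 of 7 members past the threshold in the GCB lines, where 0.00886% of genes passed, and 0 of 7 in the ABC lines, where 0.00% passed. At an unadjusted p under 0.05 it was 0 members in the GCB lines, against 874 of all genes, and 1 member in the ABC lines, against 1258 of all genes. That member was BCL2L11, with a log2 difference of 0.36 (SE 0.13, adjusted p = 0.306). TMD8, without a 12 h pair, weighs more in the late than in the early ABC pairs. Its BCL2L11 response was 0.57, against 0.20 in OCI-Ly10, so time and line are partly mixed in that difference. For PMAIP1 in the GCB lines the late minus early difference was 0.81 with a 95% interval of -0.30 to 1.92. This test pools the lines of a subtype, so that value is a mean over HT and K422, whose responses differed. Their difference adds to the spread the test works with. A change over time within K422 alone was not tested.

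**Figure D4:**
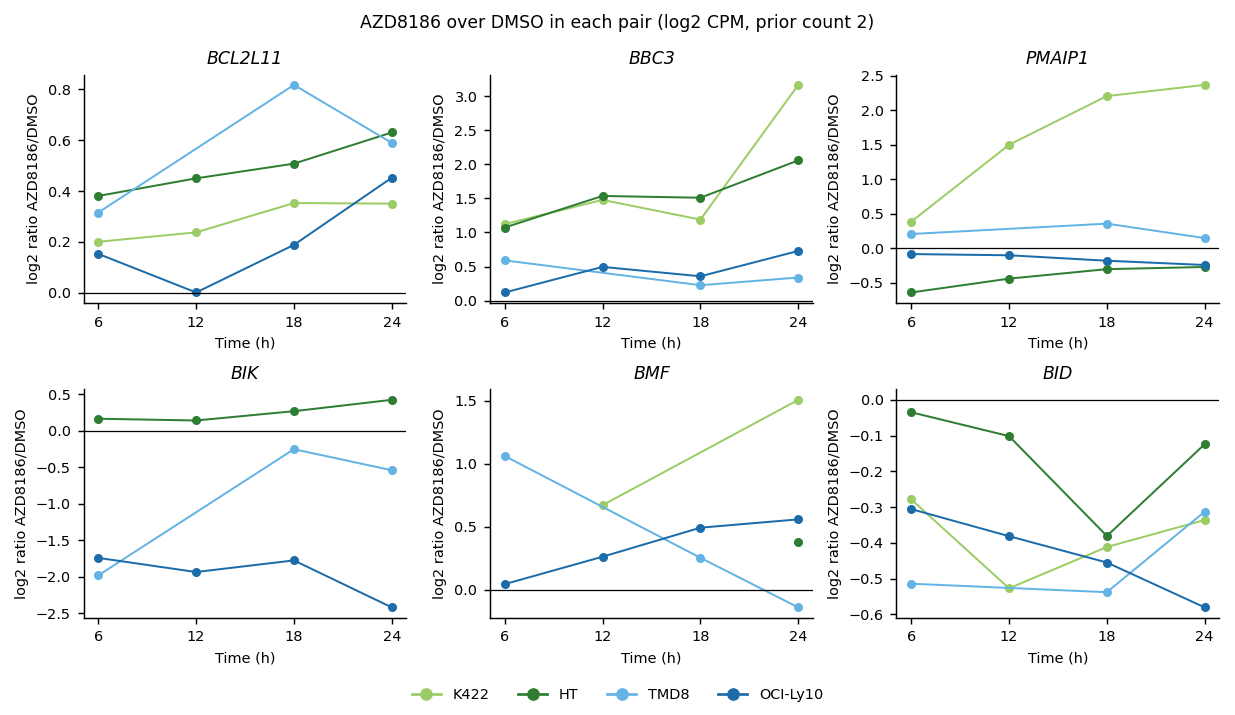
Log2 ratio of AZD8186 over DMSO in each pair (log2 CPM, prior count 2) against time in hours, for 6 members and with 1 line of points per cell line. Pairs with under 10 counts in both libraries are left out. PMAIP1 climbs in K422 to 2.36 at 24 h and stays near or below 0 in HT and OCI-Ly10, BIK is at -1.74 or lower in OCI-Ly10 at every time, and BID is below 0 in every pair.

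Genes of the partners of the BH3-only proteins were compared in the same fits. The lists that follow were written with earlier results of these data known, and their counts are to be read against the backgrounds given for each subtype or line. Among the guards, BCL2 itself, a main partner of BIM, rose in both subtypes, with log2 fold changes of 1.33 in the GCB lines (SE 0.11, adjusted p = 5.26e-07) and 0.47 in the ABC lines (SE 0.075, adjusted p = 0.000642). BCL2L1, the gene of BCL-XL, rose in the GCB lines (0.65, SE 0.077, adjusted p = 1.11e-05) and fell in the ABC lines (-0.43, SE 0.12, adjusted p = 0.017). BCL2A1, an NF-κB target, fell in the ABC lines (-0.46, SE 0.12, adjusted p = 0.013). MCL1, the partner of NOXA, was at -0.018 in the GCB lines (SE 0.075, adjusted p = 0.858). In the ABC lines MCL1 was at 0.23, just short of the threshold (SE 0.083, adjusted p = 0.0505). In all, 0 of 4 guards were lower and 2 higher in the GCB lines, and 2 of 5 were lower and 1 higher in the ABC lines. The fits per line had 2 of 5 lower and 1 higher in OCI-Ly10, but 0 of 5 lower and 2 higher in TMD8. A gene past the threshold in 1 line only is not thereby shown to differ between the lines.

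Of the pore formers, BAK1 fell in both subtypes (-0.40 in each, adjusted p = 4.06e-05 in the GCB lines and 0.00049 in the ABC lines), and BAX did not pass (0.079 in the GCB lines, adjusted p = 0.189, and 0.12 in the ABC lines, adjusted p = 0.108). Among the caspases and the apoptosome, 6 of 18 were lower and 1 higher in the GCB lines, and 4 of 19 were lower and 2 higher in the ABC lines. CYCS, which encodes cytochrome c, fell in the GCB lines (-0.64, adjusted p = 2.46e-06), as did DFFB (-0.56, adjusted p = 0.000284). APAF1, the scaffold that cytochrome c activates, rose in the ABC lines (0.44, adjusted p = 0.00679), as did CASP10 (0.72, adjusted p = 0.00749), while HTRA2 fell (-0.31, adjusted p = 0.00402).

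Other proteins with a BH3-like stretch had 5 of 8 higher and 2 lower in the GCB lines, and 2 of 7 higher and 0 lower in the ABC lines. BNIP3L, a mitophagy receptor, rose in both (0.61 in the GCB lines, adjusted p = 0.000154, and 0.60 in the ABC lines, adjusted p = 0.00832). TMEM219 (0.40, adjusted p = 0.00137) and BECN1 (0.22, adjusted p = 0.00912) rose in the GCB lines. In the ABC lines ITM2B rose (0.40, adjusted p = 0.0032), and BECN1 was at 0.15 (adjusted p = 0.062). Fitted per line, 4 of 8 genes of this list were higher and 0 lower in OCI-Ly10, whereas in TMD8 0 of 8 passed in either direction.

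Of the transcription factors known to induce BH3-only genes, 6 of 14 were higher and 5 lower in the GCB lines, and 6 of 15 were higher and 3 lower in the ABC lines. FOXO1 (1.27, adjusted p = 1.36e-06), FOXO3 (1.0, adjusted p = 8.51e-05) and FOXO4 (0.95, adjusted p = 6.7e-05) rose in the GCB lines. In the ABC lines TP63 rose (0.74, adjusted p = 0.000133), and JUN (-1.32, adjusted p = 0.000202) and TP73 (-1.35, adjusted p = 0.000462) fell. Of the genes known to be induced by FOXO factors, 11 of 13 were higher and 1 lower in the GCB lines, with a median log2 fold change of 0.71, and 7 of 18 were higher and 1 lower in the ABC lines, with a median of 0.28. The fits per line had 12 of 18 higher and 1 lower in OCI-Ly10 (median 0.40), but 5 of 18 higher and 2 lower in TMD8 (median 0.11). HT had 8 of 18 higher and 0 lower (median 0.50), and K422 12 of 18 higher and 1 lower (median 0.85). CCNG2 (1.49, adjusted p = 1.49e-08), PIK3IP1 (1.93, adjusted p = 1.39e-07) and CDKN1B (0.87, adjusted p = 1.01e-06) rose in the GCB lines, and KLF2 (0.70, adjusted p = 0.000243), TXNIP (1.32, adjusted p = 0.000659) and PINK1 (0.64, adjusted p = 0.00113) rose in the ABC lines.

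The genes known to be induced by p53 were split, with 8 of 19 higher and 6 lower in the GCB lines and 5 of 22 higher and 2 lower in the ABC lines. RRM2B (0.69, adjusted p = 4.26e-07), CCNG1 (0.38, adjusted p = 9.42e-06) and BTG2 (0.98, adjusted p = 5.22e-05) rose in the GCB lines. BTG2 (0.71, adjusted p = 0.00107) and CCNG1 (0.54, adjusted p = 0.0056) also rose in the ABC lines, where PLK3 fell (-0.54, adjusted p = 0.00566). Of the kinases, 14-3-3 proteins and other regulators that act on BH3-only proteins after translation, 10 of 28 were lower and 4 higher in the GCB lines and 5 of 30 lower and 3 higher in the ABC lines. The kinase genes PIM2 in the GCB lines (1.21, adjusted p = 4.49e-06) and PIM1 in the ABC lines (0.49, adjusted p = 0.000516) rose, and PIM3 fell in both (-0.38, adjusted p = 0.000212, and -0.66, adjusted p = 0.00114, in that order of subtypes). YWHAG fell in the GCB lines (-0.52, adjusted p = 2.54e-06) and YWHAH in the ABC lines (-0.34, adjusted p = 0.00115), both genes of 14-3-3 proteins.

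**Figure D5:**
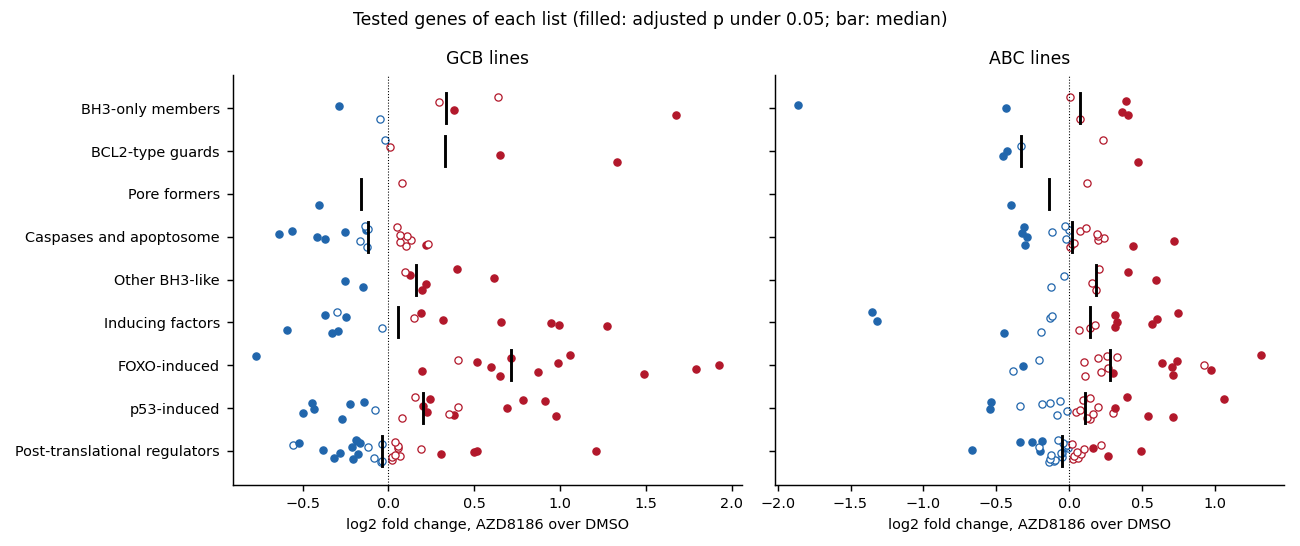
Log2 fold change of AZD8186 over DMSO for each tested gene of the members and of 8 lists of related genes in the GCB lines (left) and the ABC lines (right). Red points are above 0 and blue points below, filled points have an adjusted p under 0.05 and bars give the median of each list. The FOXO-induced genes have a median of 0.71 in the GCB lines and 0.28 in the ABC lines, and BIK is the lowest member in the ABC lines at -1.86. In fits per line, not drawn here, the FOXO-induced median is 0.40 in OCI-Ly10 and 0.11 in TMD8. Values are from counts, and on the log2(TPM + 1) scale BCL2L11 in the ABC lines is at -0.027.

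Across the 15 pairs the Pearson correlation of the members' log2 ratios was 0.11 between BCL2L11 and BBC3, 0.48 between BBC3 and PMAIP1, and -0.33 between PMAIP1 and BID. These are descriptions over pairs that share cell lines, with no test. Among the 9474 genes that averaged 5 CPM (here after TMM scaling) or more, the pattern most like that of PMAIP1 was that of JDP2 (r = 0.96), followed by GORASP1 (0.95) and PPP2R5C (0.94). For BBC3 they included GADD45B (0.91) and STK11IP (0.90), and for BCL2L11 they were TBC1D1 (0.90), PSMB9 (0.87) and SIPA1 (0.86). For BID they were RBM45 (0.88), SLC4A2 (0.85) and SRBD1 (0.85), for BMF, whose GCB pairs rest on 4 to 23 counts per library, TADA3 (0.89), SAT2 (0.89) and ABHD8 (0.88), and for BAD RPP21 (0.78), NFATC3 (0.75) and SMARCE1 (0.73).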

How the data were processed

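RNA had been isolated with the NucleoSpin RNA Plus kit and sequenced on an Illumina platform. HISAT2 placed the reads on human transcripts and RSEM summed them per gene. GRCh38.p12 is named in the submitters' processing notes, with tool versions not given in the sources used here. Expected counts had been deposited by the authors without normalization, as RSEM estimated them, and 23.65% to 29.25% of genes in a library were not whole. The TPM, also deposited by the authors, divide the counts by RSEM's effective length and scale the resulting values to the same total in every library. The deposited effective length of each gene was read too.

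Expected counts were rounded, filtered (filterByExpr), scaled by TMM and tested by edgeR's quasi-likelihood F test (edgeR 4.0.16, R 4.3.3), with Benjamini-Hochberg adjustment over all genes tested and a threshold of 0.05. Subtype fits had cell line and time as terms, fits per line and differences of responses had the pair as a block, and DMSO levels had time as a term. Log2 ratios per pair used a prior count of 2. Intervals are 1.96 standard errors. TPM were tested with limma 3.58.1. Pairing rests on cell line and time in the labels. In 13 of 15 pairs the AZD8186 library deviated from its group most like the DMSO library of its own pair (correlations -0.032 to 0.36). No library was a copy of another, since at least 60.9% of genes differed in count. Scripts were tested on simulated data.

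The members and the gene lists were chosen with earlier results of these data known. Named genes were the 8 members, the 3 smallest p of each list in each subtype, and the 3 most alike patterns of members with a mean of at least 5 CPM, apart from 2 genes that are not reported here. As alternatives, DESeq2 1.42.0, its size factors in edgeR, limma-voom, other filters, TPM with pseudocounts 1 and 0.1, other terms, and leaving out pairs, times, lines or abundant genes were tried. Positions are from GENCODE 29 (GRCh38), and promoter sequences from RefSeq (GRCh38.p14). Figures were drawn with matplotlib 3.10.9.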

Additional observations from a re-analysis of the deposited data

Results flagged for a closer look

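In 3 of the 56 groups of 4 libraries or pairs tested, 1 value lay farther from the others than Dixon's critical value allows, and chance gives about 1 in 20. BCL2L11 in K422 under AZD8186 had 37.7 TPM at 18 h, against 29.9 to 31.0 TPM in the other libraries. BID in OCI-Ly10 under AZD8186 had 60.0 TPM at 6 h, against 43.6 to 46.2 TPM. BMF in K422 under AZD8186 had 0.34 TPM at 24 h, against 0.13 to 0.16 TPM, from 23 counts at 24 h.

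The response to AZD8186 differed between groups of lines for 4 members. For PMAIP1, K422 minus HT was 2.06 on the log2 scale, with 4 of 4 K422 pairs higher and 4 of 4 HT pairs lower. For BBC3, GCB minus ABC was 1.44 and HT minus ABC 1.20, with all 15 pairs higher. For BIK, HT minus ABC was 1.82, with 4 of 4 HT pairs higher and 7 of 7 ABC pairs lower. For BID, HT minus ABC was 0.28 (adjusted p = 0.0434 by edgeR), with all 15 pairs lower, while GCB minus ABC was 0.17 (adjusted p = 0.0965). The comparisons of HT alone with the ABC lines were chosen after the data were seen.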

How the results depend on the processing

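The number of members past the threshold kept within 1.5 times of its value in both subtypes with DESeq2 size factors, DESeq2, limma-voom, no filter, the pair as a block (2 lower and 3 higher in the ABC lines, 1 lower and 2 higher in the GCB lines), without the 6 h pairs and without ribosomal RNA, MTRNR2L and histone genes. With at least 5 CPM in 7 libraries, which drops low genes, 1 member was lower in the ABC lines and 1 higher in the GCB lines. On both TPM scales 0 members were higher in the ABC lines. With no terms for cell line and time, 0 members were lower or higher in either subtype. TMD8 alone had 1 lower and 1 higher, and HT alone had 2 lower. HT fitted alone had 4 members called. On the log2(TPM + 1) scale the differences had 1 (TMD8 minus OCI-Ly10), 3 (K422 minus HT) and 5 members (GCB minus ABC). Leaving out each pair gave 1 to 3 members for GCB minus ABC, 2 to 5 for OCI-Ly10 and 0 to 1 for TMD8 minus OCI-Ly10.

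BCL2L11 in the ABC lines turned to -0.027 with log2(TPM + 1) and -0.029 with log2(TPM + 0.1), beside different effective lengths, and whether these account for it was not tested. PMAIP1 turned from 0.64 over both GCB lines to -0.43 with HT alone. BBC3 in K422 minus HT turned to -0.76 (adjusted p = 0.0103) with log2(TPM + 1), a pseudocount above the K422 DMSO levels of BBC3.

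Over all genes in the ABC lines, 1577 were lower and 1750 higher, against 4279 and 620 with log2(TPM + 1), 4238 and 614 with log2(TPM + 0.1), 75 and 97 with no terms, 138 and 265 in TMD8 alone, 970 and 1124 without the 18 h pair of OCI-Ly10 and 1014 and 1140 without its 24 h pair. In the GCB lines 2576 were lower and 2840 higher, against 770 and 622 with no terms. Depth limited BIK in K422, BMF in the GCB lines and HRK.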
